A study of Homo sapiens with 9 samples.

Results

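The BCL2 family decides at the mitochondrial surface whether a cell under stress dies by apoptosis. Anti-apoptotic members such as BCL2 and MCL1 hold the effectors BAX and BAK1 in check. BH3-only members, named for the single homology domain they share with the rest of the family, bind the anti-apoptotic members or the effectors and so tip the cell towards pore formation and release of cytochrome c. In neuroblastoma the family is well known because many tumours depend on BCL2 or MCL1 for survival.

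10 genes of the family were listed by name and all 10 were found among the 14943 genes of the count table. 4 are anti-apoptotic (BCL2, BCL2L1, BCL2L2 and MCL1), 2 are effectors (BAX and BAK1) and 4 are BH3-only (BBC3, PMAIP1, BCL2L11 and BID). Their counts ran from 276 to 9670 per library, so none was close to the detection limit.

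Levels were measured by polyA RNA sequencing in SH-Sy5y cells, a human neuroblastoma line, 48 h after transfection with a mimic of miR-1229-3p. A microRNA mimic is a short synthetic RNA that is loaded into the silencing complex like the cell's own microRNA. The study made these libraries to look for direct targets of miR-1229-3p. The total amount of oligonucleotide was the same in all groups. The control group (Ctrl.) received 40 pmol of a negative control oligonucleotide, the 10 nM group 20 pmol of the control and 20 pmol of the mimic, and the 20 nM group 40 pmol of the mimic alone. Hence the control oligonucleotide fell as the mimic rose, in every comparison between groups and in any trend over the concentrations. Effects of the mimic and of less control oligonucleotide cannot be told apart. The comparison of 20 nM with Ctrl. also sets cells without the control oligonucleotide against cells with it. Each group held 3 libraries, which held from 17423800 to 28192600 counts each. RNA of a pair of wells went into 1 library where this was possible. Nothing in the labels says that the replicates came from separate cultures, so the p-values measure only the spread between these libraries, which may be technical.

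1 library stood apart from the others. 20 nM replicate 3 lay at 47.4 on the first principal component, while the other 8 libraries lay between -17.1 and 7.72. Adrenergic neuroblastoma markers were strong in every library, with 10 of 10 in the table and a summed level of 5064 to 5249 CPM (counts scaled to a common library size) in Ctrl., 5425 to 5977 at 10 nM and 5230 to 6390 at 20 nM, although the noradrenaline synthesis gene TH itself reached a mean of only 0.424 CPM. Mesenchymal markers (5 of 6 in the table) summed to 37.4 to 49.4 CPM over all libraries. Epithelial markers (3 of 4) stayed between 1.12 and 2.88 CPM, and of 3 blood markers only CD14 was in the table, at 0.45 to 1.62 CPM. PRRX1, KRT8, PTPRC and CD3E of these lists were not in the table. Part of any change in a bulk library may be a change in how many cells of a kind are present, which cannot be told apart from less RNA per cell.

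A microRNA recognises its targets mostly through its seed, bases 2 to 8 of the mature strand, which pairs with the 3′ untranslated region (3′ UTR) of the mRNA. The mature miR-1229-3p of RefSeq is 23 bases long and is encoded on the minus strand at chr5:179798278-179798300 (GRCh38.p14). It is shown here with the seed in capitals because the matches below follow from it.
miR-1229-3p: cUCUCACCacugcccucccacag

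On the sense strand of each gene's longest annotated 3′ UTR, matches were sought to 4 motifs. GGTGAGAA is the 8-mer, GGTGAGA pairs with all seed bases, GTGAGAA is the second 7-mer (bases 2 to 7 before an A) and GTGAGA is the 6-mer, and a shorter match inside a longer one was not counted again. Of 13778 genes with a 3′ UTR of at least 50 bases, 22.6% held an 8-mer or a 7-mer, 15.8% held only a 6-mer and 61.6% held none. Among the members, 2 of 10 held a 7-mer (BCL2 and BCL2L11), 3 of 10 only a 6-mer (BCL2L1, BCL2L2 and BAK1) and 5 of 10 no match (MCL1, BAX, BBC3, PMAIP1 and BID). None held an 8-mer, which 4.61% of all genes did. The strongest match of each of the 5 genes is printed with 30 bases of 3′ UTR, the matching bases in capitals. They lie at chr18:63126674-63126703 (minus strand), chr2:111167317-111167346 (plus), chr20:31665760-31665789 (minus), chr14:23309972-23310001 (plus) and chr6:33573424-33573453 (minus), in the order of the lines.
BCL2: ttcaaaagcattctgagaaGGTGAGAtaag
BCL2L11: aagtgtgtgtttgatgccaGTGAGAAactc
BCL2L1: ctagaatttatcacacttctGTGAGAcccc
BCL2L2: gggtcccacactgtgtctcaGTGAGActgt
BAK1: tagctttttataatacccttGTGAGAgccc

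The 10 members were not expressed evenly in control cells. On a per-length scale (CPM per kb of the canonical transcript), the effector BAX was highest in Ctrl. at 101 ± 7.41 (SD, n = 3) and MCL1 second at 85.3 ± 1.88. BID followed at 24.5 ± 1.11 and BCL2L1 at 20.9 ± 0.642. BAK1 stood at 14.2 ± 0.777. BCL2L2 at 12.1 ± 0.184 and BBC3 at 12.1 ± 0.492 were the only neighbours in this order whose control libraries overlapped. BCL2L11 at 10.8 ± 0.0521, PMAIP1 at 8.65 ± 1.01 and BCL2 at 5.76 ± 0.595 closed the list. BAX's place depends on its short canonical transcript of 795 bases. At 20 nM the order changed in the middle only, where BBC3 moved from place 7 to place 5, BAK1 from place 5 to place 6 and BCL2L2 from place 6 to place 7.

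At 10 nM no member passed the test, while at 20 nM the BH3-only gene BBC3 rose and the anti-apoptotic gene BCL2L2 fell. With edgeR's quasi-likelihood test over all 9 libraries, adjusted by Benjamini-Hochberg over all genes at a threshold of 0.05, 0 of 10 members passed at 10 nM, where 0.649% of all genes did. 1 member, BCL2L11, was under 0.05 before adjustment at 10 nM, and DESeq2 also called 0. At 20 nM 2 of 10 members passed, where 13.9% of all genes did. 1 of 10 was higher, as 7.8% of all genes were, and 1 of 10 lower, as 6.08% were, so both shares were near the background. In the dose trend, a fit of the mimic concentration over Ctrl., 10 nM and 20 nM, the same 2 genes passed where 17.6% of all genes did (9.92% higher and 7.64% lower). The median log2 fold change of the members was -0.02 at 10 nM and -0.08 at 20 nM, and that of all genes was 0.000468 and -0.000161. Fitted fold changes take out 1 surrogate variable, an estimate of unexplained variation between libraries, and can therefore differ from the ratio of the group means.

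**Figure D1:**
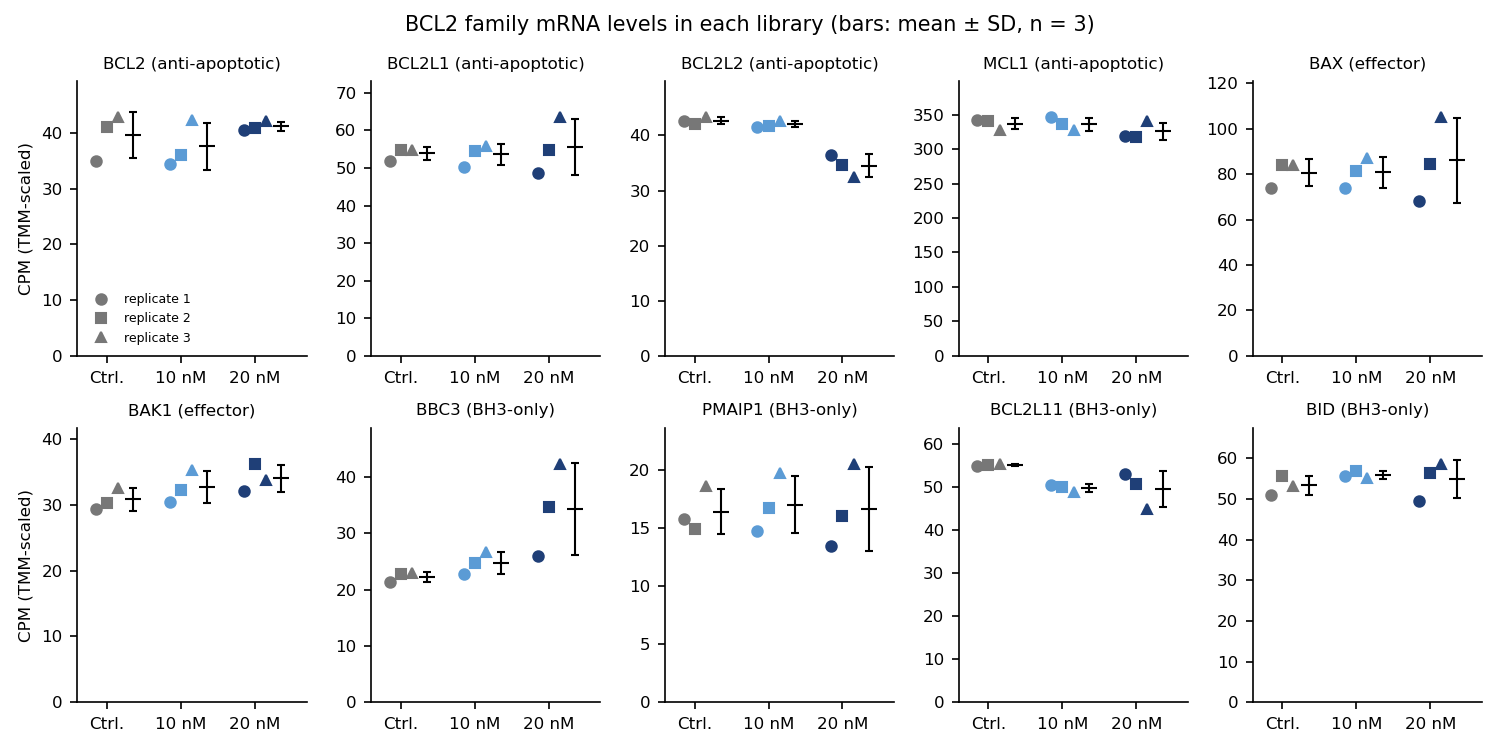
Level of each member in CPM (vertical axis, TMM-scaled, starting at 0) in the 3 libraries of Ctrl., 10 nM and 20 nM, with the replicate number as the symbol and mean ± SD as black bars. The 3 BBC3 libraries of 20 nM lie between 25.9 and 42.3 CPM, above the control range of 21.3 to 23.0, and the 3 BCL2L2 libraries of 20 nM lie between 32.4 and 36.5, below the control range of 42.1 to 43.3.

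BBC3 encodes PUMA, a BH3-only protein that binds all anti-apoptotic members and is a classical p53 target. Its level was 21.3, 22.7 and 23.0 CPM in Ctrl., 22.7, 24.8 and 26.6 at 10 nM and 25.9, 34.7 and 42.3 at 20 nM. Every 20 nM library lay above every control, the 10 nM libraries overlapped with both, and 20 nM replicate 3 was the highest of all. At 20 nM 1 of 10 members lay wholly above the controls, as did 15.2% of all genes. BBC3 rose by a fitted log2 fold change of 0.38 at 20 nM (SE 0.0924, 95% interval 0.18 to 0.58, 29.8% higher, adjusted p = 0.0175 by edgeR's quasi-likelihood test). At 10 nM the value was 0.08 (interval -0.10 to 0.27, adjusted p = 0.691), although the level was higher than in the control of the same number in 3 of 3 libraries. How large a share of all genes did so is not given. The step from 10 to 20 nM was 0.29 (0.10 to 0.48, adjusted p = 0.108). Left-out libraries moved this step to 0.50 (without 20 nM replicate 1, adjusted p = 0.0172) and 0.16 (without 20 nM replicate 2, adjusted p = 0.406), and it also passed when 20 nM replicate 3 was left out and the surrogate variables were estimated anew (0.32, adjusted p = 0.00762). The dose trend, expressed as the change over 20 nM, was 0.45 (0.26 to 0.64, adjusted p = 0.00367).

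The size of the BBC3 change depended on the fit. Without a surrogate variable it was 0.62 at 20 nM (adjusted p = 0.0311). With the replicate number as a block it was 0.60 (adjusted p = 0.00915), in a fit that held no surrogate variable either. Without 20 nM replicate 3, the library that stood apart, it was 0.44 (adjusted p = 0.0117). The call at 20 nM was lost when 20 nM replicate 2 (0.21, adjusted p = 0.153), Ctrl. replicate 1 (0.34, adjusted p = 0.0665) or Ctrl. replicate 3 (0.37, adjusted p = 0.053) was left out. The dose trend of BBC3 stayed past the threshold under all 18 alternatives tried, with values from 0.29 to 0.65. 1 of these, without the filter on low counts, equalled the fit reported because the filter removed 0 genes. The gene lies on chr19:47220822-47232766 (minus strand), and its longest 3′ UTR of 978 bases held none of the letters searched.

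BCL2L2 encodes BCL-w, an anti-apoptotic protein prominent in neurons. Its level was 42.6, 42.1 and 43.3 CPM in Ctrl., 41.6, 41.7 and 42.6 at 10 nM and 36.5, 34.6 and 32.4 at 20 nM. Control and 10 nM libraries lay within a narrow band, and all 20 nM libraries lay below both. Such a gap below the 10 nM group was found for 1 of 10 members and 6.32% of all genes. The fitted log2 fold change was -0.01 at 10 nM (interval -0.12 to 0.10, adjusted p = 0.94 by edgeR's quasi-likelihood test). BCL2L2 fell by 0.26 on the log2 scale at 20 nM (SE 0.0589, 95% interval -0.38 to -0.13, adjusted p = 0.0119), a percent change of -16.4. The direct test of 20 nM against 10 nM gave -0.25 (-0.37 to -0.12, adjusted p = 0.0363) and was passed by 1 of 10 members and 2.79% of all genes. The dose trend was -0.27 (-0.41 to -0.12, adjusted p = 0.013).

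The fall of BCL2L2 at 20 nM was lost only without 20 nM replicate 2 (-0.25, adjusted p = 0.0657), as was the dose trend (-0.23, adjusted p = 0.087). The step from 10 to 20 nM was less secure, since it passed the threshold under 8 of 18 alternatives. With the replicate block it was -0.28 (adjusted p = 0.0981), without a surrogate variable -0.28 (adjusted p = 0.143) and with DESeq2 -0.25 (adjusted p = 0.0556). It also missed the threshold in turn without Ctrl. replicates 1 and 2, each 10 nM replicate and 20 nM replicates 1 and 2, with values between -0.30 and -0.23. BCL2L2 lies on chr14:23298790-23311751 (plus strand) and holds only the 6-mer printed above, 1027 bases into a 3′ UTR of 2786 bases.

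Other genes share the BCL2L2 locus, and whether reads were counted by strand is not given in the sources used here. The readthrough gene BCL2L2-PABPN1, which joins BCL2L2 to the poly(A)-binding gene PABPN1 downstream, stood at 7.16 ± 2.31, 6.64 ± 2.31 and 8.21 ± 2.3 CPM in Ctrl., 10 nM and 20 nM (SD, n = 3) and had a log2 fold change of 0.05 at 20 nM (adjusted p = 0.942). HOMEZ, on the opposite strand, stood at 14.8 CPM in Ctrl. and at 20 nM alike (log2 fold change 0.10, adjusted p = 0.56). PPP1R3E, also on the opposite strand, stood at 9.42 and 6.93 CPM, which did not pass at 20 nM (-0.35, adjusted p = 0.104) and passed in the dose trend (-0.37, adjusted p = 0.0426). PABPN1 itself passed in the direction of BCL2L2, at 224 CPM in Ctrl. and 212 at 20 nM (-0.16, adjusted p = 0.0398, dose trend -0.13, adjusted p = 0.0422). Reads of these genes can be exchanged with BCL2L2 in the estimated counts, and their part in the result was not tested.

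**Figure D2:**
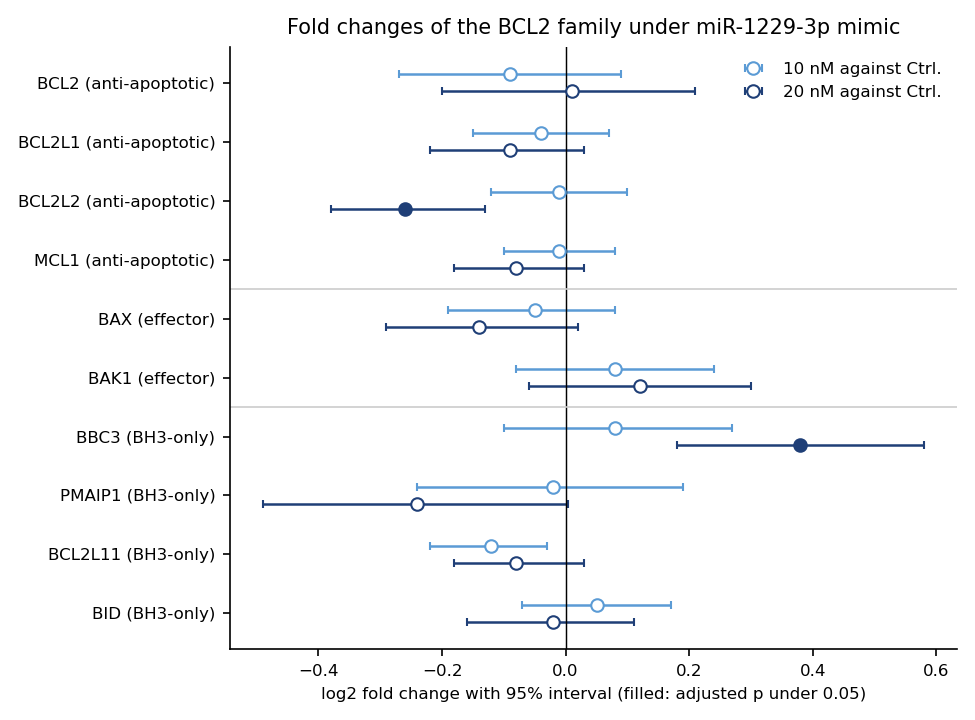
Fitted log2 fold change of each member (horizontal axis) at 10 nM and 20 nM against Ctrl., with its 95% interval, grouped as anti-apoptotic, effector and BH3-only. Filled points have an adjusted p under 0.05, which holds for BCL2L2 (-0.26) and BBC3 (0.38) at 20 nM and for no member at 10 nM.

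The remaining anti-apoptotic members did not pass the test. BCL2, which restrains BAX and BH3-only proteins at mitochondria and endoplasmic reticulum, stood at 35.0, 41.1 and 42.8 CPM in Ctrl., 34.4, 36 and 42.3 at 10 nM and 40.6, 40.9 and 42.1 at 20 nM. All groups overlapped, and the fitted log2 fold changes were -0.09 (-0.27 to 0.09, adjusted p = 0.675 by edgeR) and 0.01 (-0.20 to 0.21, adjusted p = 0.965). BCL2 is the member with the 7-mer to seed bases 2 to 8. BCL2L1 (BCL-xL) stood at 52.0 to 54.9, 50.4 to 55.9 and 48.6 to 63.5 CPM, its highest value in 20 nM replicate 3. Its fold changes were -0.04 (-0.15 to 0.07) and -0.09 (-0.22 to 0.03, adjusted p = 0.318).

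MCL1, a short-lived protein that is degraded rapidly under stress, stood at 342, 341 and 328 CPM in Ctrl., 346, 337 and 327 at 10 nM and 319, 318 and 340 at 20 nM. 2 of the 20 nM libraries lay below every control and replicate 3 lay among the controls. The fitted log2 fold changes were -0.01 (-0.10 to 0.08) and -0.08 (-0.18 to 0.03, adjusted p = 0.327 by edgeR). When 20 nM replicate 3 was left out and the surrogate variables were estimated anew, MCL1 passed at 20 nM (-0.08, adjusted p = 0.0327) and against 10 nM (-0.09, adjusted p = 0.0482). MCL1 overlaps ADAMTSL4 on the opposite strand, which was at 2.6 to 3.35 CPM in the 3 group means.

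Neither effector passed the test. BAX, which oligomerises in the outer mitochondrial membrane, stood at 73.8, 84.0 and 84.0 CPM in Ctrl., 73.7, 81.4 and 87.3 at 10 nM and 68.2, 84.6 and 105 at 20 nM. Thus the 20 nM group held both the lowest and the highest library. Its fitted log2 fold changes were -0.05 (-0.19 to 0.08) and -0.14 (-0.29 to 0.02, adjusted p = 0.237 by edgeR), although its mean CPM at 20 nM (86.0 ± 18.6) was not below that in Ctrl. (80.6 ± 5.89). The sign depended on the fit: the 20 nM value was 0.09 without a surrogate variable and -0.25 without 20 nM replicate 2, where it passed (adjusted p = 0.0409). BAK1, the second effector, stood at 29.3, 30.3 and 32.6 CPM in Ctrl., 30.4, 32.2 and 35.3 at 10 nM and 32.1, 36.2 and 33.7 at 20 nM. It was above the control of the same number in 6 of 6 mimic libraries, but the groups overlapped and the fold changes were 0.08 (-0.08 to 0.24) and 0.12 (-0.06 to 0.30, adjusted p = 0.379). Both mimic groups were set against the same controls, so the 6 are not independent, and the share of all genes that did so is not given.

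BCL2L11 encodes BIM, a BH3-only protein that engages all anti-apoptotic members and is needed for neuronal death after loss of trophic factors. Its level was 55.0, 55.2 and 55.5 CPM in Ctrl., 50.6, 50.2 and 48.9 at 10 nM and 53.1, 50.7 and 44.9 at 20 nM. All 6 mimic libraries lay below all 3 controls, which were nearly equal. It was the 1 member of 10 wholly below the controls at 10 nM, as 9.9% of all genes were, and 1 of 2 such members at 20 nM beside BCL2L2, where 13.7% of all genes were. The fitted log2 fold change was -0.12 at 10 nM (-0.22 to -0.03, adjusted p = 0.244 by edgeR) and -0.08 at 20 nM (-0.18 to 0.03, adjusted p = 0.37), so neither passed. The dose trend was -0.11 (adjusted p = 0.177) and passed only without 20 nM replicate 1 (-0.20, adjusted p = 0.0317). BCL2L11 holds the 7-mer GTGAGAA printed above, 3105 bases into a 3′ UTR of 4213 bases.

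PMAIP1 encodes NOXA, which binds MCL1 and is a p53 and stress target like BBC3. Its level was 15.8, 14.9 and 18.6 CPM in Ctrl., 14.7, 16.7 and 19.7 at 10 nM and 13.4, 16.0 and 20.5 at 20 nM. All groups overlapped and the spread was widest at 20 nM. Fitted log2 fold changes were -0.02 (-0.24 to 0.19) and -0.24 (adjusted p = 0.185 by edgeR). The 95% interval at 20 nM reached from -0.49 to 0.00364. The value depended on the fit, at 0.0159 without a surrogate variable, 0.00303 with the replicate block and -0.10 without 20 nM replicate 1, and the mean CPM was 16.4 in Ctrl. and 16.6 at 20 nM. BID, which carries the death receptor signal to mitochondria after cleavage by caspase 8, stood at 50.9 to 55.7, 55.0 to 56.9 and 49.5 to 58.6 CPM. Its fold changes were 0.05 (-0.07 to 0.17) and -0.02 (-0.16 to 0.11, adjusted p = 0.861).

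Over the uncalled members the 95% intervals bounded the changes in the fit with 1 surrogate variable. At 10 nM they ran from -0.27 (BCL2) to 0.27 (BBC3), and at 20 nM from -0.49 (PMAIP1) to 0.30 (BAK1), where the lower bound rests on a PMAIP1 value that was near 0 in other fits.

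The balance of pro- against anti-apoptotic members differed from that of Ctrl. by at most 0.18 on the log2 scale in the group means. As a description, the mean log2 CPM of the 6 pro-apoptotic members (effectors and BH3-only) minus that of the 4 anti-apoptotic ones was taken within each library. It is not corrected for length, so only its change between groups is read. It was -1.01, -1.02 and -0.97 in Ctrl., -0.98, -0.92 and -0.91 at 10 nM and -0.96, -0.78 and -0.72 at 20 nM. Libraries of 20 nM were spread widely, with replicate 1 beside the controls and replicates 2 and 3 above every other library. The group means were -1.0 ± 0.027, -0.94 ± 0.038 and -0.82 ± 0.13 (SD, n = 3), a difference from Ctrl. of 0.06 at 10 nM and 0.18 at 20 nM. Without 20 nM replicate 3 the difference at 20 nM was 0.13. Against the control of the same number, the difference was 0.03, 0.10 and 0.06 at 10 nM and 0.05, 0.24 and 0.25 at 20 nM, above 0 in 6 of 6 pairs. Both groups were set against the same 3 controls, so these 6 pairs are not independent.

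The mean log2 CPM of the pro-apoptotic members at 20 nM differed from Ctrl. by 0.11 and that of the anti-apoptotic members by -0.06. Without 20 nM replicate 3 these differences were 0.04 and -0.09. With BBC3 and BCL2L2 left out, a choice made after their values were seen, the difference in the balance was 0.04 at 10 nM and 0.00371 at 20 nM. Against the control of the same number it was then -0.07, 0.08 and 0.0 at 20 nM, and above 0 in 4 of 6 pairs over both groups. The often used pair of BAX and BCL2 differed by 1.02 ± 0.051 in Ctrl., 1.10 ± 0.066 at 10 nM and 1.04 ± 0.29 at 20 nM, where the single libraries were at 0.75, 1.05 and 1.32. Its difference from Ctrl. at 20 nM was 0.01, and -0.13 without 20 nM replicate 3. For NOXA and its partner MCL1, the log2 CPM of PMAIP1 minus that of MCL1 was -4.36 ± 0.19, -4.31 ± 0.25 and -4.31 ± 0.26.

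**Figure D3:**
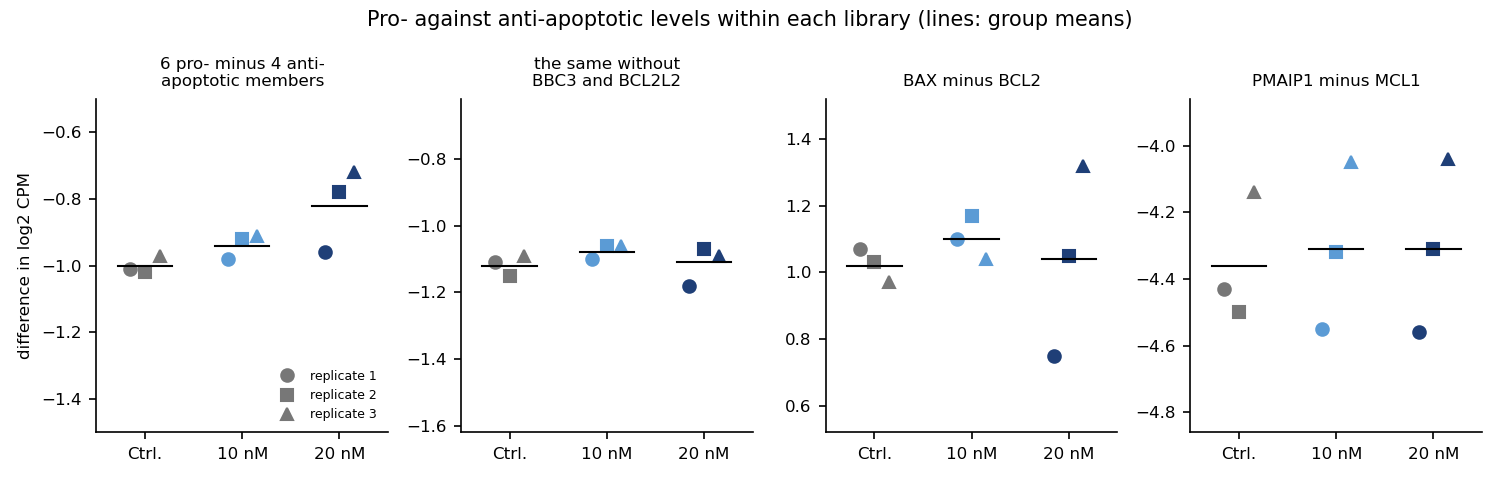
Difference in log2 CPM (vertical axis, the same span of 1 in each panel) within each library for the 6 pro- minus the 4 anti-apoptotic members, the same without BBC3 and BCL2L2, BAX minus BCL2, and PMAIP1 minus MCL1, with lines at the group means. In the first panel the means lie at -1.0, -0.94 and -0.82, and in the second at -1.12, -1.08 and -1.11.

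The genes whose levels followed BBC3 most closely over the 9 libraries were PES1 (Pearson r = 0.988), MRPS23 (r = 0.982) and FTSJ3 (r = 0.982), and without 20 nM replicate 3 r was 0.971, 0.959 and 0.964. PES1 and FTSJ3 act in ribosome assembly and MRPS23 is a protein of the mitochondrial ribosome. They were picked as the highest of all genes over libraries that share groups and replicate numbers, so the values are a description. None of these 3 passed the test at 20 nM (adjusted p = 0.283, 0.14 and 0.145 by edgeR), and MRPS23 passed in the dose trend (0.18, adjusted p = 0.0349).

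Beyond the 10 members, 68 genes of the apoptosis pathway were compared, of which 63 were in the table. BCL2L10, BCL2L14, BIK, CASP10 and TNFRSF10D were not. At 10 nM 0 of the 63 passed by edgeR, beside 0.649% of all genes (11 were under 0.05 before adjustment, and DESeq2 called 2, E2F1 and JUN). At 20 nM 13 of 63 passed, 3 higher and 10 lower, which is 20.6% beside 13.9% of all genes. In the dose trend 15 passed, 5 higher and 10 lower, or 23.8% beside 17.6%. The medians of the 63 genes were -0.00438 at 10 nM and -0.03 at 20 nM. Without 20 nM replicate 3 the count at 20 nM was 16 (6 higher and 10 lower), and with the replicate block it was 9 (4 higher and 5 lower), so the lean towards lower depended on the fit. For genes named below without a further remark, the call at 20 nM stood under both.

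Among 10 other BCL2 family genes, 1 rose and 2 fell at 20 nM, beside 7.8% and 6.08% of all genes. HRK, a BH3-only gene of neurons, fell from 6.67 ± 1.03 CPM in Ctrl. and 6.71 ± 0.981 at 10 nM to 4.05 ± 0.378 at 20 nM. Its 3 libraries at 20 nM (4.31, 3.61 and 4.21) lay below all others, with a log2 fold change of -0.75 (-1.15 to -0.34, adjusted p = 0.0194 by edgeR). Of all genes 13.7% lay wholly below the controls at 20 nM and 6.32% wholly below the 10 nM group. BAD, a BH3-only gene regulated by survival kinases, passed in the dose trend (0.27, adjusted p = 0.0488), from 44.8 to 55.9 CPM. At 20 nM it did not pass (0.25, adjusted p = 0.126), but it did without 20 nM replicate 3 (0.29, adjusted p = 0.0114) and with the block (adjusted p = 0.0225). The 2 others, named because the count is small, were BOK (-0.74, adjusted p = 0.037) and BNIP3L (0.20, adjusted p = 0.0359). The call of BOK was lost without 20 nM replicate 3 (adjusted p = 0.0788) and that of BNIP3L with the block (adjusted p = 0.915).

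Downstream of the family, 2 of 17 genes of caspases and mitochondrial release passed at 20 nM, both lower. This was 11.8% of the list, beside 13.9% of all genes. APAF1, the scaffold that cytochrome c assembles into the apoptosome, was at 51.7, 53.1 and 52.5 CPM in Ctrl., 47.4, 47.9 and 47.7 at 10 nM and 40.6, 39.9 and 34.7 at 20 nM. Neither mimic group overlapped with the controls. Of all genes 9.9% lay wholly below the controls at 10 nM and 13.7% at 20 nM. APAF1 fell by 0.37 on the log2 scale at 20 nM (-0.49 to -0.26, adjusted p = 0.000823 by edgeR), whereas the value at 10 nM was -0.12 (adjusted p = 0.297). The mitochondrial nuclease ENDOG had a fitted value of -0.42 (adjusted p = 0.00317), but its 20 nM libraries stood at 47.5, 46.5 and 71.4 CPM around controls of 57.9 to 65.7, and with the block the call was lost (adjusted p = 0.395). AIFM1 passed in the trend (0.24, adjusted p = 0.012) and not at 20 nM (0.20, adjusted p = 0.0514), where it did pass without 20 nM replicate 3 (adjusted p = 0.0231) and with the block (adjusted p = 0.0268).

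In the p53 and stress list, 6 of 17 genes (35.3%, beside 13.9% of all genes) passed at 20 nM, 1 higher and 5 lower. Without 20 nM replicate 3 the same 6 passed. With the replicate block, a fit that held no surrogate variable, 2 of 17 passed, where 2039 of 14943 genes did. They were ZMAT3 (adjusted p = 0.00702) and MDM4 (adjusted p = 0.0477), of which MDM4 was not among the 6 (-0.10, adjusted p = 0.28 without the block). ZMAT3, a p53 target, was the 1 that rose. It stood at 53.5, 57.0 and 56.8 CPM in Ctrl., 56.2, 57.3 and 54.1 at 10 nM and 73.7, 74.3 and 67.3 at 20 nM (0.41, 0.30 to 0.53, adjusted p = 0.000321 by edgeR). Its 20 nM libraries lay wholly above the controls, as 15.2% of all genes did. The transcription factor gene FOXO3, which drives BBC3 and BCL2L11 in other systems, fell from 187 to 164 CPM (-0.21, adjusted p = 0.0236), a call lost with the block (adjusted p = 0.0515). E2F1 (-0.67, adjusted p = 0.000388) and JUN (-0.52, adjusted p = 0.00393) also lost their calls with the block (adjusted p = 0.108 and 0.126). E2F1 was at 71.9 and 72.5 CPM in replicates 1 and 2 of 20 nM but at 125 in replicate 3, above its controls of 101 to 118. The other 2 that passed, GADD45A (-0.59, adjusted p = 0.0169) and ATF4 (-0.29, adjusted p = 0.023), were likewise lost with the block (adjusted p = 0.97 and 0.259). In 20 nM replicate 3 they stood at 49.5 and 169 CPM, above their controls of 24.1 to 35.6 and 145 to 165. The mean of GADD45A was 29.5 CPM in Ctrl. and 30.9 at 20 nM. GADD45A is a p53 target too. Of other p53 targets in the list, CDKN1A (-0.28, adjusted p = 0.256), MDM2 (-0.12, adjusted p = 0.329), SESN2 (-0.33, adjusted p = 0.092), SESN1 (-0.07, adjusted p = 0.639) and TP53INP1 (0.04, adjusted p = 0.649) did not pass. Whether p53 activity changed was not tested.

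The last 3 lists held few calls at 20 nM (11.1%, 20.0% and 0.0% of their genes, in the order below, beside 13.9% of all genes). TNFRSF1A, the TNF receptor, was the 1 of 9 death receptor genes that passed at 20 nM (3.19 to 4.1 CPM, 0.58, adjusted p = 0.0459 by edgeR), a call lost with the block (adjusted p = 0.17). FBXW7, a ubiquitin ligase subunit that marks MCL1 for degradation, was the 1 of 5 genes of MCL1 turnover that passed, from 31.5 to 26.9 CPM (-0.29, adjusted p = 0.0164, and 0.0614 with the block). Of 5 outer membrane partners 0 passed at 20 nM by edgeR (2 before adjustment, 0 by DESeq2), and BCAP31 passed in the trend (0.19, adjusted p = 0.0148). At 20 nM BCAP31 passed without 20 nM replicate 3 (0.17, adjusted p = 0.035) and with the block (adjusted p = 0.0245).

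The 12 pathway genes named by the rule differed in their seed matches. An 8-mer or 7-mer stood in the longest 3′ UTR of 3 (HRK, E2F1 and FOXO3), a 6-mer alone in 2 (ENDOG and JUN) and no match in 7, among them APAF1 and ZMAT3. Of all genes 22.6% held an 8-mer or 7-mer. Among the pathway genes compared, an 8-mer stood in BMF, CASP9, BIRC5 and FAS, none of which passed at 20 nM by edgeR. Their fitted values were -0.21, 0.07, -0.08 and -0.04 (adjusted p = 0.331, 0.813, 0.307 and 0.9). With the block BMF passed (adjusted p = 0.0409). The 8-mer of FAS lies outside the 3′ UTR of its canonical transcript. BOK, with a fitted value of -0.74 at 20 nM, held no match. HRK held the 7-mer to seed bases 2 to 8 at 2 places. Both are printed with the match in capitals because HRK had the lowest fitted value of the family, a choice made after the values were seen. They lie at chr12:116859264-116859293 and chr12:116857727-116857756, on the minus strand.
HRK, first: gacacaggagaagatgaaaGGTGAGAggat
HRK, second: gattcttttctgttttgatGGTGAGAggaa

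**Figure D4:**
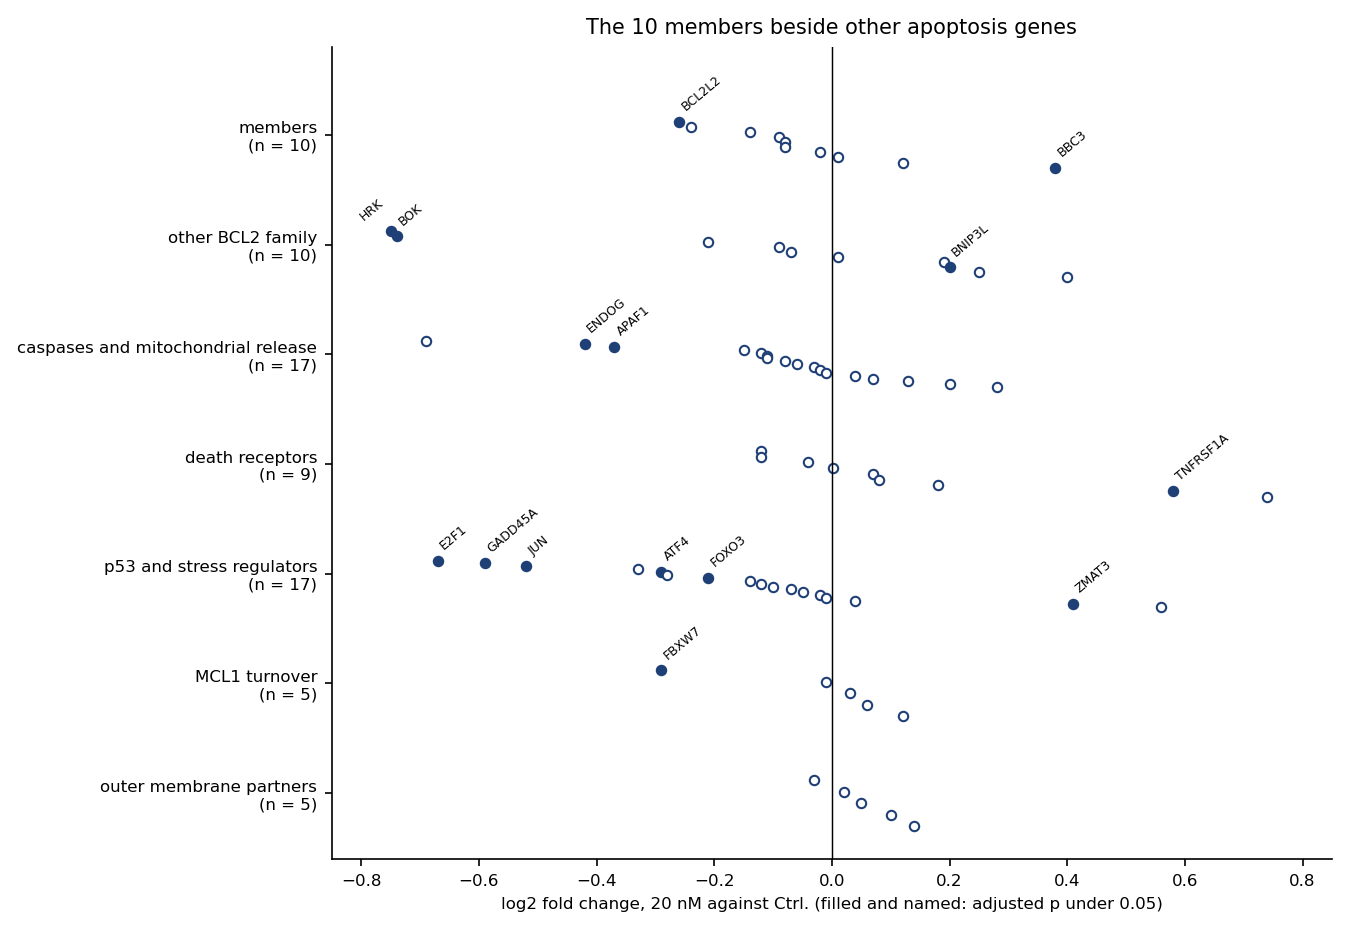
Fitted log2 fold change at 20 nM against Ctrl. (horizontal axis) of the 10 members and of the 63 other apoptosis genes, 1 point per gene in 6 lists, spread vertically by rank for legibility. Filled and named points have an adjusted p under 0.05, which holds for 2 of 10 members and for 13 of the 63 others, 10 of them to the left of 0. With the replicate block the 63 gave 4 higher and 5 lower.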

How the data were processed

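PolyA libraries of SH-Sy5y cells (3 per group, groups and replicate numbers from the sample titles) were compared. Per the labels and the study's methods, the authors mapped reads with salmon onto GRCh38.p13 (Ensembl annotation 107), summed them by gene symbol and applied filterByExpr. The deposited values are estimated counts, 88.8% of them not whole, for 14943 genes. The authors' tables of comparisons (fold change, p-value and adjusted p-value per gene) and of values corrected by surrogate variables were not used.

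Rounded counts entered edgeR 4.0.16 (R 4.3.3, filterByExpr, which removed 0 genes, TMM scaling, quasi-likelihood test over all 9 libraries), with 1 surrogate variable from sva 3.50.0 in the fit by group and 1 in the fit by concentration (num.sv, seed 1, held between 1 and 3). The unit of the dose trend is 20 nM. p-values were adjusted by Benjamini-Hochberg over 14943 genes, at a threshold of 0.05. CPM were computed on TMM-scaled library sizes, log2 CPM with a prior count of 2. The scripts were tested on simulated data. DESeq2 1.42.0, other scalings and filters, no surrogate variable, a replicate block and leaving out libraries were the alternatives. The replicate block took the place of the surrogate variable, so no fit held both. Where a call was lost with the block, the 2 changes cannot be told apart.

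Libraries that share a replicate number deviated together from their group means (r = 0.142 to 0.185 for 10 nM against Ctrl., 0.107 to 0.116 for 20 nM against Ctrl.), with every pair over 0.1. Levels and balances were therefore also compared by number there. The fits reported as the main result held no pairing, which entered only through the replicate block among the alternatives. For 20 nM against 10 nM r was 0.0288 to 0.176. The labels do not say what a number marks.

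Gene positions, transcript lengths and 3′ UTRs came from GENCODE for GRCh38.p14 (14105 genes matched by identifier, 768 by symbol, 70 not), and the mature microRNA from RefSeq. The members and gene lists were chosen with earlier results of these data known. All 10 members are described. Of each pathway list, up to 4 genes past the threshold in the dose trend with the smallest adjusted p were named, and for the member with the smallest adjusted p in the trend the 3 most correlated genes. BOK, BNIP3L, GADD45A, ATF4, MDM4, CDKN1A, MDM2, SESN1 and SESN2 fall outside that rule and were named after their values were seen. 1 gene of the pathway lists is not reported here and was left out of their counts.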

Additional observations from a re-analysis of the deposited data

How the results depend on the processing

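Over 18 alternatives, 720 fold changes of members were recomputed, of which 641 kept their direction and their side of the threshold, 15 lost and 6 gained a call, 58 changed sign without passing in either fit, and 0 reversed a call. 1 of the 18, the fit without filterByExpr, equalled the fit reported because the filter removed 0 genes, so its values could not differ. With DESeq2, 218 genes passed at 10 nM (97 in the analysis reported), and 0 members passed for 20 nM against 10 nM, where 1 did. Without a surrogate variable, 5 genes passed at 10 nM, 954 at 20 nM (2074 reported), 67 for 20 nM against 10 nM (417 reported) and 1236 in the dose trend (2624 reported), with 0 members for 20 nM against 10 nM. With the replicate block, 3 genes passed at 10 nM and 124 for 20 nM against 10 nM, with 0 members in the latter, and no other call of a member changed. When 20 nM replicate 3 was left out and the number of surrogate variables estimated anew, 1318 genes passed at 10 nM, 4370 at 20 nM and 1495 for 20 nM against 10 nM, and 3 members (BCL2L2, MCL1 and BBC3) passed in the last. Leaving out 1 library at a time gave 34 to 160 genes at 10 nM, 1074 to 2656 at 20 nM, 111 to 462 for 20 nM against 10 nM and 1369 to 3318 in the trend. For members it gave 1 to 2 at 20 nM, 0 to 1 for 20 nM against 10 nM and 1 to 3 in the trend, and a balance at 20 nM of 0.128 to 0.252. Where a setting changed a result, the cause was not tested. A fit by concentration with 2 surrogate variables, added after seeing the data because the intended setting of 1 equalled the fit used, passed 2620 genes and the same count of 2 members. The counts of pathway genes without 20 nM replicate 3 were added after seeing the data as well. For the seed matches no paired analysis was possible because they are not measured per library. The effect of depth was not tested, and the member with the lowest count (PMAIP1, 276) also had the largest SE at 20 nM (0.113).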
